A study of Mus musculus with 2 samples.

Results

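Histones and chromatin regulators were examined in mouse morulae as a set of 42 array spots with 40 gene names, out of 8735 gene spots in all. The members were chosen by the start of the gene name in the files (histone and its families, high mobility group, chromobox, chromodomain, SWI/SNF, bromodomain, enhancer of zeste, nucleosome, methyl-CpG and similar starts), and no measured value was used for the choice. Of the 42 spots, 41 (97.6%) were well above background in both channels on both arrays, against 86.9% of all gene spots, and these 41 were tested. A current RefSeq symbol could be given to 38 of the 40 names, and these symbols are used below.

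The study asked which transcripts differ when leukemia inhibitory factor (LIF) is knocked down in pre-implantation embryos. Embryos of the B6CBF1 strain, at an age of 4 d by the labels, had been injected at the pronuclear stage with siRNA against LIF or with scrambled siRNA, which was the control, and whole morulae were used. The labels give 1.0 fmol of siRNA for both groups, and the methods of the study give another amount. RNA of LIF-siRNA-treated embryos was labeled with Cy5 and RNA of scrambled-siRNA-treated embryos with Cy3, and the labeled pair was hybridized together, on 2 cDNA arrays with the same dye order. The dyes were not swapped, so dye and treatment cannot be told apart. Whether array 1 and array 2 carried RNA of different embryos is not given in the sources used here, and the p-values then measure only the spread between these arrays. No spot is named for LIF, so the knockdown could not be checked in these samples.

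In the nucleus, DNA is wound around histone octamers to form nucleosomes. Histone variants, chaperones that load histones, enzymes that add or remove acetyl and methyl groups, reader proteins that bind these marks, and ATP-driven remodellers together set how open the DNA is. In the pre-implantation embryo this machinery is rebuilt while maternal proteins and transcripts are replaced by those of the embryo. Polycomb proteins, heterochromatin protein 1 (HP1) and the chromodomain remodeller Chd1 are known for roles in the early embryo and in embryonic stem cells.

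The largest ratio among the members was that of a spot for Chd1, which was higher after LIF-siRNA on both arrays, and the smallest were those of a spot named histone gene complex 2 and of Suv39h1, a histone H3 lysine 9 methyltransferase, which were lower on both. The study called genes by a ratio of Cy5 to Cy3 past 2 or 0.5 together with a signal above 1000 in Cy3 or Cy5, without stating how the arrays were combined. Here both were taken as means over the arrays, geometric for the ratio, and these 3 spots were past the criteria so applied. Thus 1 of 42 spots was higher (2.38%) and 2 of 42 were lower (4.76%) by these criteria. Over all gene spots free of outlier marks the shares were 2.16% higher, or 188 of 8712, and 2.19% lower, or 191 of 8712. With each array centred on its median in place of lowess, the counts over all spots were 142 higher and 245 lower, and those of the members did not change. The criteria contain no test, and the members' shares lie near those of the array as a whole.

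When each log2 ratio was tested against 0 by limma, with Benjamini-Hochberg adjustment over all 8079 tested probes, 0 of 41 members had an adjusted p under 0.05, as did 0.0% of the tested probes. Adjusted p of the members ranged from 0.0592 to 0.992. At an unadjusted p under 0.05 there were 10 of 41 members, or 24.4%, of which 5 were higher and 5 lower, against 30.7% of all tested probes. By the methods' t-test there were also 0 members after adjustment, and before it 7 of 41 (17.1%), against 10.7% of all tested probes. When 200 of 8079 probes were given a known change in data simulated for this comparison, limma found 0 of them at 2-fold and 172 at 4-fold. The other simulated probes had no change, unlike the real arrays with 30.7% at an unadjusted p under 0.05, so this recovery need not hold there. Mean log2 ratios of all tested probes ran from -3.58 to 3.15, yet 0.0% had an adjusted p under 0.05. No member had a mean ratio as large as 4-fold. The word higher or lower below gives the sign of a ratio and no call.

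The members were mostly brighter than other spots on the array. The median processed signal of the 42 spots was 1786 in Cy5 and 1971 in Cy3 on array 1, and 1869 in Cy5 and 1741 in Cy3 on array 2. The medians over all gene spots lay between 470.2 and 489.5 in these 4 channels. A mean signal above 1000 in either channel was found for 28 of 42 members (66.7%) and for 40.5% of all gene spots. The Pearson r of the log2 ratios of array 1 and array 2 was 0.838 across the 41 tested members and 0.639 across all tested probes, which are genes within the same 2 arrays and not independent replicates. The median SD between the arrays was 0.17 for the members and 0.25 for all tested probes on the log2 scale.

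The log2 ratio was above 0 on both arrays for 17 of 41 members (41.5%) and below 0 on both for 17 of 41 (41.5%), and 7 members had opposite signs on the 2 arrays. Over all tested probes 36.7% were above 0 on both arrays, 36.8% were below 0 on both, and 2143 of 8079 had opposite signs. The median over the members was a log2 ratio of 0.052 for array 1 and -0.13 for array 2, and the median of their means was 0.018, beside -0.0040 for all tested probes. The means ran from -1.21 to 1.55. The histones and chromatin regulators therefore held as many ratios in one direction as in the other.

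**Figure D1:**
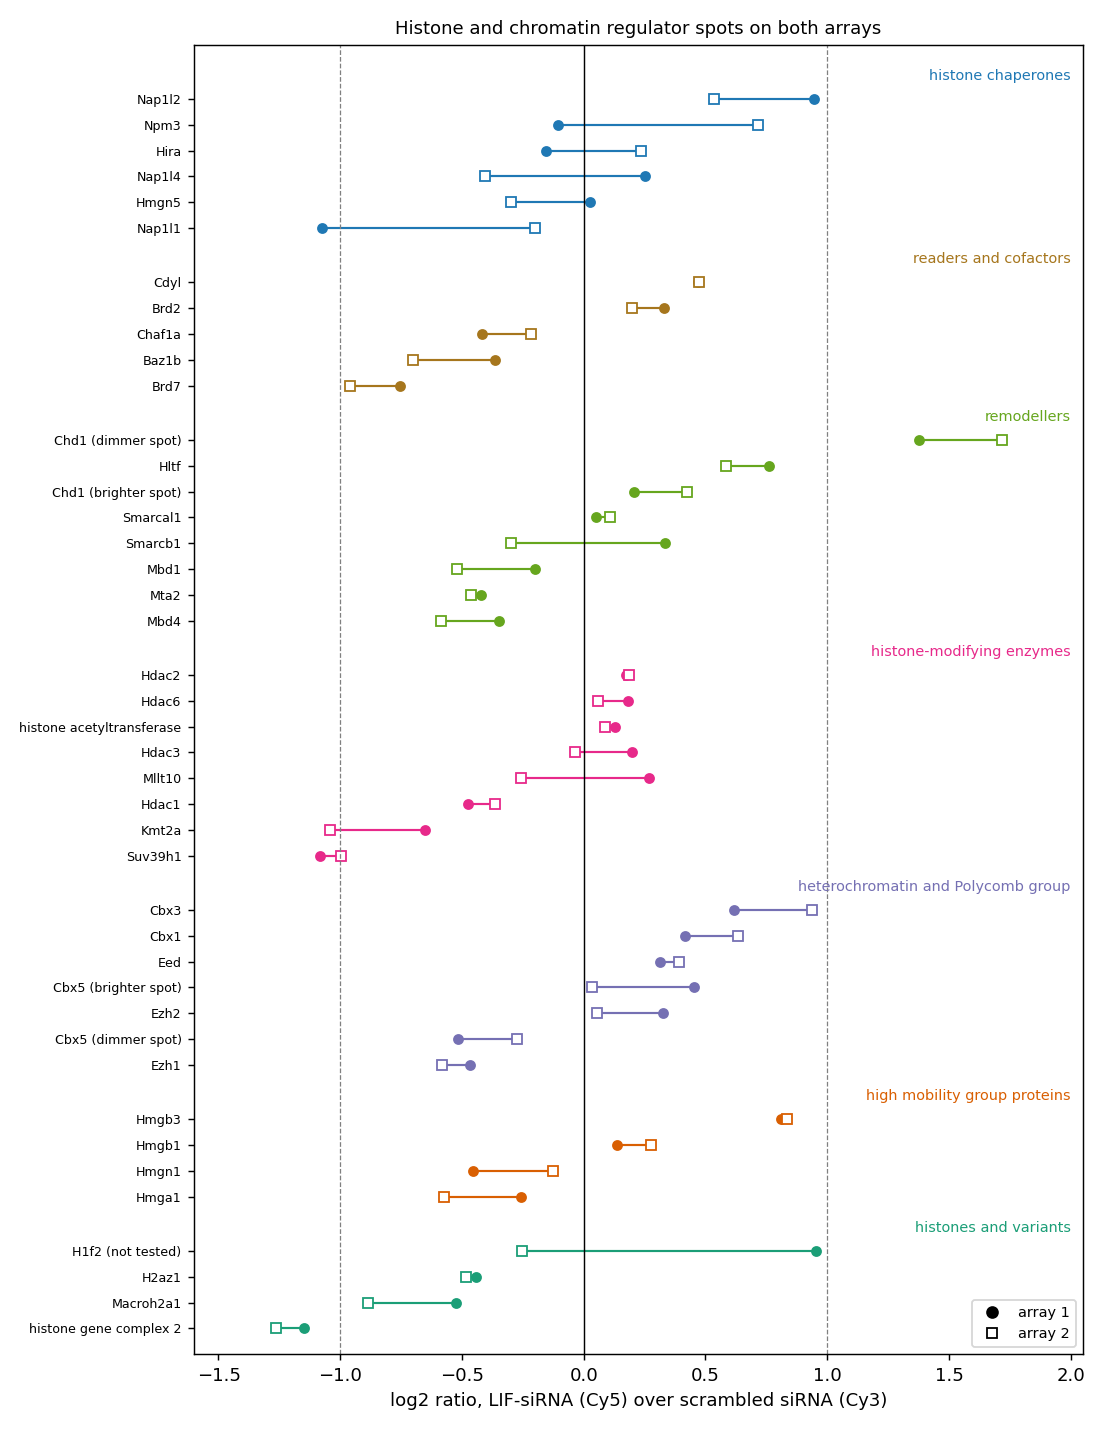
Log2 ratio of LIF-siRNA over scrambled siRNA (x axis) for each of the 42 member spots (y axis), grouped by role, with array 1 as filled circles, array 2 as open squares and a line joining them; dashed lines mark a 2-fold ratio in each direction. The spread of the members on both sides of 0 is seen, with the dimmer Chd1 spot at the right (1.38 and 1.72) and histone gene complex 2 at the left (-1.15 and -1.26).

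**Figure D2:**
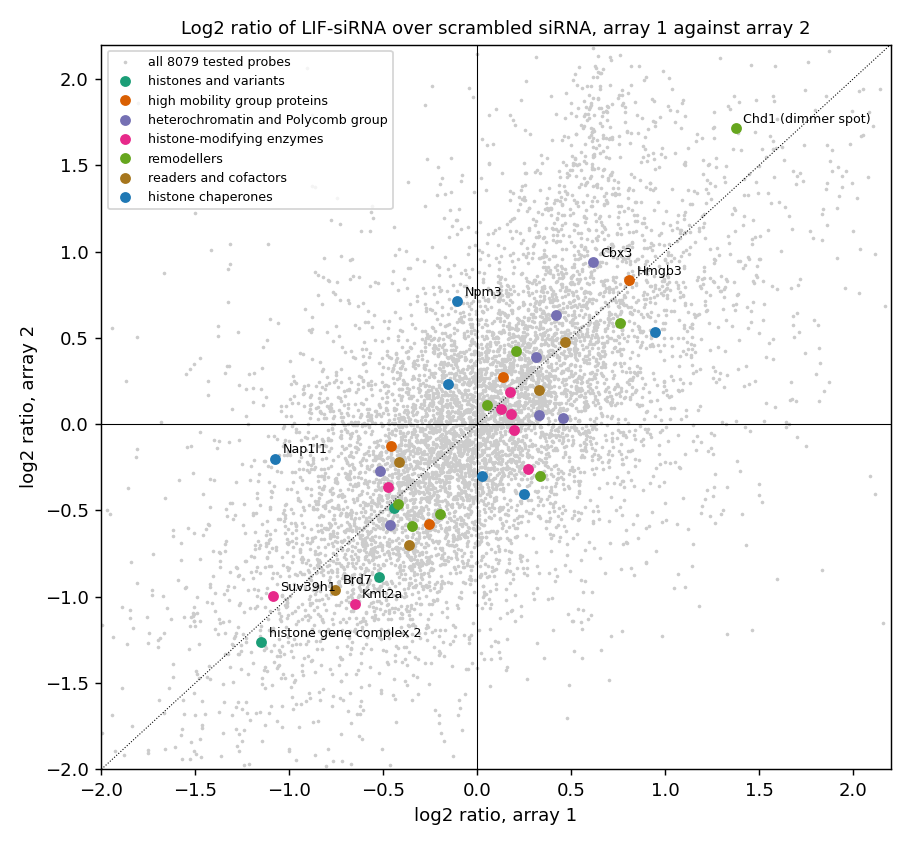
Log2 ratio of LIF-siRNA over scrambled siRNA on array 1 (x axis) and array 2 (y axis), with the 8079 tested probes in grey and the 41 tested members coloured by role; 141 tested probes lie outside the axes and the dotted line marks equal ratios. Members lie along the dotted line (r of 0.838), and Nap1l1 and Npm3 are the labeled members farthest from it.

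To show the sequence upstream of the members at both ends of the range, promoters were taken from RefSeq on build GRCm38.p6. A window was found for 31 of the 37 tested members with a symbol, 43 windows in all, and Chd1, Hdac1, Hdac3, Mbd1, Nap1l2 and Nap1l4 are not analysed here in this respect. The 250 bases before the transcription start are printed 5′ to 3′ for the 2 members with the highest and the 2 with the lowest mean log2 ratio among those with a window, and of several windows of a gene the one with the most matches was used. Capitals mark matches on either strand to TTCNNNGAA (the STAT motif, of the family of factors that act downstream of LIF), CCAAT (the CCAAT box, bound by NF-Y and common in histone promoters) and TTTNGCGC (an E2F-like motif of cell cycle promoters). These 3 motifs did not overlap in the windows shown.

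Hmgb3, chrX:71555667-71555916, + strand: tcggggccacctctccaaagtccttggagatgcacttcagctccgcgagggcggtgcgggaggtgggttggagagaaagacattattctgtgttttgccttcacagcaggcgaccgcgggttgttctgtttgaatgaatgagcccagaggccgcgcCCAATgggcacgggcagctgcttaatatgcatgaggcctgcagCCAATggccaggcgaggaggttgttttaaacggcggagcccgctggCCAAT
Cbx3, chr6:51470366-51470615, + strand: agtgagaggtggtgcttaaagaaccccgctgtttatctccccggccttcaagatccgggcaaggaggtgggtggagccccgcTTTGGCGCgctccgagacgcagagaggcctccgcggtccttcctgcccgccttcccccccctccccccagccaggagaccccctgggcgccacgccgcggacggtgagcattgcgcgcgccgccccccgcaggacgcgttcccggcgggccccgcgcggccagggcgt
Suv39h1, chrX:8074761-8075010, - strand: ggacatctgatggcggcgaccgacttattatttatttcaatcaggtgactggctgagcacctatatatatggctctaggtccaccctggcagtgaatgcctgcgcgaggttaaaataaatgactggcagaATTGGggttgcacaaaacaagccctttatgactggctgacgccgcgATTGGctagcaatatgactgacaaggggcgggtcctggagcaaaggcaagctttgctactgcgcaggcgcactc
Brd7, chr8:88362173-88362422, - strand: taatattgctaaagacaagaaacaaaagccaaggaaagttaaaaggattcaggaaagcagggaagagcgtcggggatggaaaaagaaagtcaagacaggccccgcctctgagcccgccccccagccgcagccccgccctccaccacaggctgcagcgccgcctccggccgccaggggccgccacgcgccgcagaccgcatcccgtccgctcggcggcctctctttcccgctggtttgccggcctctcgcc

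The Hmgb3 window held 3 matches to CCAAT, starting 94, 51 and 5 bases before the transcription start. The Suv39h1 window held 2 matches to CCAAT, on the opposite strand as ATTGG, and the Cbx3 window 1 match to TTTNGCGC. None of the 3 motifs matched in the Brd7 window. Over the 43 member windows CCAAT was found in 17 (39.5%), against 33.8% of all 32851 promoter windows, with 7 of 19 windows of members higher on both arrays and 7 of 15 windows of members lower on both. TTCNNNGAA was found in 1 member window (2.33%), that of Brd2, against 7.02% of all windows, and TTTNGCGC in 2 (4.65%), those of Cbx3 and Cbx5, against 1.13% of all windows. These are matches of letters and not measured binding sites.

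The tested histone spots were lower in LIF-siRNA-treated embryos on both arrays, with means from -1.21 to -0.46 and 2 of the 3 at an unadjusted p under 0.05. Of all tested probes, 36.8% were lower on both arrays and 30.7% had such a p, and the 3 spots are clones in pSPORT, a vector in which 47.7% of the probes were lower on both. The spot named histone gene complex 2, a name for a cluster of histone genes and not for a single gene, had a processed signal of 714 and 660.1 in Cy5 (array 1, then array 2, as in all pairs of values below) and of 1583 and 1584 in Cy3. The Cy5 signals were below both Cy3 signals. The log2 ratios were -1.15 and -1.26 in the same order (mean -1.21 ± 0.08, SD, n = 2 arrays), a ratio of 0.434, with an adjusted p of 0.0635 in limma. A cDNA spot of a histone can bind transcripts of near-identical histone genes, so the gene behind this signal is uncertain.

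H2az1 encodes the H2A.Z variant, which is found at promoters and is needed for early mouse development. It was among the brighter members, with 17387 and 16356 in Cy5 and 23646 and 22877 in Cy3, and the channels did not overlap. The log2 ratios were -0.44 and -0.48 (mean -0.46 ± 0.03, SD, n = 2 arrays, adjusted p = 0.205). Macroh2a1 encodes a large H2A variant known from the inactive X chromosome. Its signals were 1519 and 1076 in Cy5 and 2184 and 1989 in Cy3, with log2 ratios of -0.52 and -0.89 (mean -0.70 ± 0.26, adjusted p = 0.119). The fourth spot of this group, the linker histone H1f2, was not well above background in either channel on either array, with signals from 15.2 to 38.9, and no fold is given for it.

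Among the high mobility group proteins, abundant non-histone proteins that bend DNA or bind nucleosomes, 2 of the 4 spots with that name were higher and 2 lower on both arrays, and Hmgn5, a nucleosome-binding protein of the same class that the files list as nucleosome binding protein 1, was split. Hmgb3, a DNA-bending HMG-box protein, showed one of the most even pairs of ratios, and it is the first promoter printed above. Its signals of 21395 and 20235 in Cy5 lay above those of 12213 and 11336 in Cy3. The log2 ratios were 0.81 and 0.84 (mean 0.82 ± 0.02, SD, n = 2 arrays), a ratio of 1.77, with an adjusted p of 0.0928. Its relative Hmgb1 had log2 ratios of 0.14 and 0.28 (mean 0.21 ± 0.10, adjusted p = 0.541). The log2 ratio of Hmgb3 minus that of Hmgb1 was 0.67 on array 1 and 0.56 on array 2. Hmga1, an AT-hook protein of proliferating and embryonic cells, had signals of 692 and 691 in Cy5 against 828 and 1029 in Cy3. Its log2 ratios were -0.26 and -0.58 (mean -0.42 ± 0.22, adjusted p = 0.266). Hmgn1, which binds the nucleosome core, had a mean of -0.29 ± 0.23 (adjusted p = 0.417).

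The HP1 proteins read methylated lysine 9 of histone H3, the mark that Suv39h1 makes. Cbx3 (HP1 gamma) had the highest ratio of the group, with signals of 879 and 905 in Cy5 and 572 and 472 in Cy3, which did not overlap. Its log2 ratios were 0.62 and 0.94 (mean 0.78 ± 0.23, SD, n = 2 arrays, adjusted p = 0.103). Cbx1 (HP1 beta) had log2 ratios of 0.42 and 0.63 (mean 0.52 ± 0.15, adjusted p = 0.177). Cbx5 (HP1 alpha) had a pair of spots with opposite signs. The brighter one, at 1367 and 1028 in Cy5 and 998 and 1004 in Cy3, had log2 ratios of 0.45 and 0.03, and the dimmer one, at 41.3 and 45.5 in Cy5 and 59.1 and 55.0 in Cy3, had -0.52 and -0.27. The adjusted p was 0.504 for the brighter and 0.279 for the dimmer spot, so the direction of Cbx5 is not settled by these arrays.

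Polycomb repressive complex 2 places methyl groups on lysine 27 of histone H3, with Ezh1 or Ezh2 as its enzyme and Eed as a core subunit. Ezh1 was lower on both arrays, at 621 and 706 in Cy5 and 857 and 1057 in Cy3, with log2 ratios of -0.47 and -0.58 (mean -0.52 ± 0.08, SD, n = 2 arrays, adjusted p = 0.172). Ezh2 was slightly higher on both, with log2 ratios of 0.33 and 0.05 (mean 0.19 ± 0.19, adjusted p = 0.584). The log2 ratio of Ezh2 minus that of Ezh1 was 0.79 on array 1 and 0.63 on array 2, and this difference was not tested. Eed had log2 ratios of 0.32 and 0.39 (mean 0.35 ± 0.05, adjusted p = 0.311). In the heterochromatin and Polycomb group as a whole, 5 of 7 spots were higher and 2 lower on both arrays, with a median of 0.24, and 1 spot, that of Cbx3, had an unadjusted p under 0.05. Of all tested probes, 36.7% were higher on both arrays and 30.7% had such a p.

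Of the 8 spots of histone-modifying enzymes, 3 were higher on both arrays, 3 lower on both and 2 split. Suv39h1 had signals of 943 and 1134 in Cy5 and of 2001 and 2264 in Cy3. Both Cy5 signals were below both Cy3 signals. The log2 ratios were -1.09 and -0.998 (mean -1.04 ± 0.06, SD, n = 2 arrays), a ratio of 0.486, with an adjusted p of 0.0726. It lies close to the 2-fold threshold. With the ratio required on each array, on array 2 alone, or under normexp background correction with loess (mean -0.96), it was no longer past the criteria. Kmt2a (named myeloid/lymphoid or mixed-lineage leukemia), a histone H3 lysine 4 methyltransferase, was dimmer, at 247.8 and 292.7 in Cy5 and 389.5 and 602 in Cy3, with log2 ratios of -0.65 and -1.04 (mean -0.85 ± 0.27, adjusted p = 0.0972). Mllt10, a fusion partner of that gene in leukemia, is grouped here by its name and was split, at 0.27 and -0.26.

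The histone deacetylases differed in sign. Hdac1 had log2 ratios of -0.48 and -0.36 (mean -0.42 ± 0.08, SD, n = 2 arrays, adjusted p = 0.244). Hdac2, which joins Hdac1 in the Sin3, NuRD and CoREST complexes, was at 12518 and 13913 in Cy5 and 11085 and 12223 in Cy3. Both Cy5 signals lay above both Cy3 signals by a small margin, with log2 ratios of 0.18 and 0.19 (mean 0.18 ± 0.01, adjusted p = 0.585). The mean was 0.063 with median centring and 0.31 with the median of the clone vector class subtracted, so its size depends on the scaling. The log2 ratio of Hdac2 minus that of Hdac1 was 0.65 on array 1 and 0.55 on array 2, and this difference was not tested. Hdac3 was split, at 0.20 and -0.04, and Hdac6, a largely cytoplasmic deacetylase, had 0.18 and 0.06. The spot named histone acetyltransferase, which the name does not tie to a single gene, had 0.13 and 0.09.

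The remodellers, grouped by name, held the widest range of the role groups, with means from -0.47 to 1.55. The upper end rests on 1 Chd1 spot, and the next highest spot of the group, that of Hltf, had a mean of 0.67. Chd1 binds histone H3 methylated at lysine 4 through its chromodomains and slides nucleosomes at transcribed genes, and it had a pair of spots with the same cluster code in the files. The dimmer spot had signals of 1547 and 2267 in Cy5 and of 595 and 689 in Cy3, so that Cy5 lay above Cy3 on both arrays without overlap. Its log2 ratios were 1.38 and 1.72 (mean 1.55 ± 0.24, SD, n = 2 arrays), a ratio of 2.92, with an adjusted p of 0.0592, the smallest of the members. The brighter spot had signals of 6903 and 7228 in Cy5 and 5974 and 5380 in Cy3. Its log2 ratios were 0.21 and 0.43 (mean 0.32 ± 0.15, adjusted p = 0.364), which is a ratio of 1.25. The spots thus had the same sign but differed by 1.17 on array 1 and 1.29 on array 2 on the log2 scale, and the size of the Chd1 ratio depends on the spot.

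Hltf, a SWI/SNF-like helicase (named subfamily a, member 3), had log2 ratios of 0.76 and 0.58 (mean 0.67 ± 0.12, SD, n = 2 arrays, adjusted p = 0.118). Smarcb1, a core subunit of the SWI/SNF complex, was split, at 2507 and 2147 in Cy5 and 1989 and 2639 in Cy3, with log2 ratios of 0.33 and -0.30. Smarcal1, which anneals DNA at stalled replication forks, was near 0 on both arrays, at 0.05 and 0.11. Thus no direction was shared by the spots named for SWI/SNF. Both spots named for a methyl-CpG binding domain had log2 ratios below 0 on both arrays, as did 36.8% of all tested probes. Mbd4, a glycosylase that repairs mismatches at methylated CpG sites, had 291.7 and 293.4 in Cy5 and 371 and 441 in Cy3. Its log2 ratios were -0.35 and -0.59 (mean -0.47 ± 0.17, adjusted p = 0.213), and Mbd1, a transcriptional repressor, had a mean of -0.36 ± 0.23 (adjusted p = 0.325). Mta2 (named metastasis associated 1-like 1), a subunit of the NuRD complex together with Hdac1 and Hdac2, had log2 ratios of -0.42 and -0.46 (mean -0.44 ± 0.03, adjusted p = 0.221).

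Of the 5 readers and cofactors, 3 were lower and 2 higher on both arrays. Brd7, a bromodomain subunit of a SWI/SNF complex, had signals of 601 and 578 in Cy5 and 1013 and 1126 in Cy3, which did not overlap. The log2 ratios were -0.75 and -0.96 (mean -0.86 ± 0.15, SD, n = 2 arrays), a ratio of 0.552, with an adjusted p of 0.0915. Brd2, a BET protein that binds acetylated histones, had log2 ratios of 0.33 and 0.20 (mean 0.26 ± 0.09, adjusted p = 0.435). The log2 ratio of Brd2 minus that of Brd7 was 1.08 on array 1 and 1.16 on array 2. Baz1b, part of the WICH remodeller, had log2 ratios of -0.36 and -0.70, and Chaf1a, the large subunit of the chromatin assembly factor that loads histones behind the replication fork, had -0.42 and -0.22. Cdyl, a chromodomain corepressor, had 4054 and 3764 in Cy5 and 2932 and 2710 in Cy3, with log2 ratios of 0.47 on both arrays (mean 0.47, SD 0.0043, adjusted p = 0.201).

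The histone chaperones, a group that by the start of the name takes in Hmgn5 and leaves out Chaf1a, had a median SD between the arrays of 0.38 on the log2 scale, the highest of the role groups, and 4 of 6 spots were split. Without Hmgn5 the median SD was 0.46, with 3 of 5 split, and with Chaf1a in its place it was 0.38, with 3 of 6 split. Over all tested probes 2143 of 8079 were split. Nap1l1, which carries H2A and H2B, had signals of 3664 and 5262 in Cy5 and 7720 and 6048 in Cy3. Its log2 ratios were -1.07 on array 1 but -0.20 on array 2 (mean -0.64 ± 0.62, SD, n = 2 arrays, adjusted p = 0.209), so the value rests largely on array 1. Its relative Nap1l2 was higher on both arrays, at 719 and 475.3 in Cy5 and 372.9 and 328 in Cy3, with log2 ratios of 0.95 and 0.54 (mean 0.74 ± 0.29, adjusted p = 0.114). Nap1l4 was split, at 5988 and 5112 in Cy5 and 5036 and 6763 in Cy3, with log2 ratios of 0.25 and -0.40. Npm3, of the nucleoplasmin family, had -0.11 on array 1 and 0.71 on array 2, with signals of 2434 and 2308 in Cy5 and 2621 and 1407 in Cy3. Only its Cy3 signal on array 2 stood apart from the other 3 signals. Hira, which loads the H3.3 variant, had -0.15 and 0.23, and the nucleosome binding protein Hmgn5 had 0.03 and -0.30. The sizes of the Nap1 family and Npm3 ratios were therefore not settled by these arrays, and neither were the signs of Nap1l4 and Npm3.

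**Figure D3:**
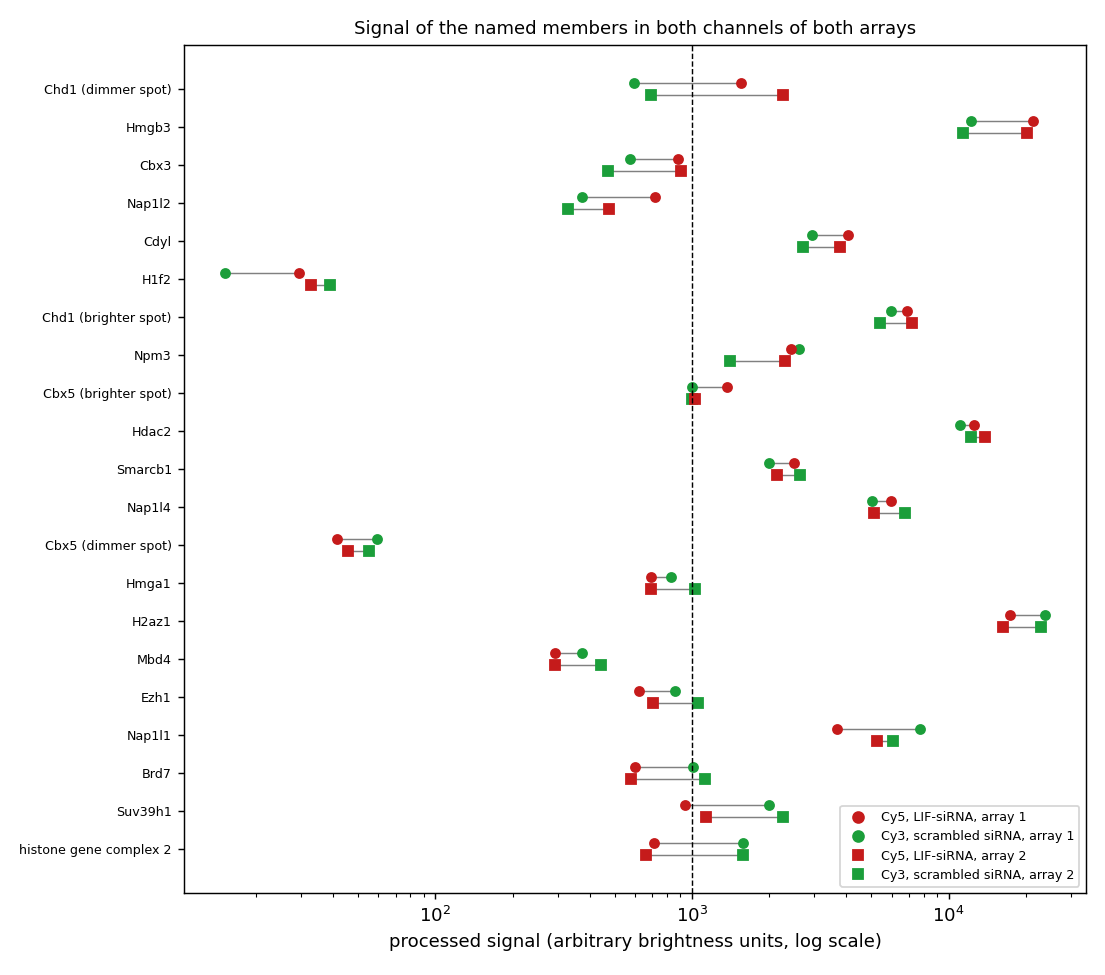
Processed signal on a log scale (x axis, arbitrary brightness units) of the 21 named member spots (y axis) in Cy5 for LIF-siRNA (red) and Cy3 for scrambled siRNA (green), with array 1 as circles and array 2 as squares; the dashed line marks the signal threshold of 1000. H1f2 and the dimmer Cbx5 spot lie far below the line, while Hmgb3 and H2az1 lie far above it in every channel, with red to the right of green for Hmgb3 and to the left for H2az1.

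A further list of chromatin genes outside the naming rule (DNA methyltransferases, Polycomb ring finger proteins, retinoblastoma binding proteins, cohesin, topoisomerase II and others) was read from the same fit. Of its 19 spots, 3 were higher on both arrays, 11 lower on both and 5 split, with a median of -0.21, and 0 of 19 had an adjusted p under 0.05. The 11 lower spots were 57.9% of the list, against 36.8% of all tested probes, and the 3 higher ones 15.8%, against 36.7%. An unadjusted p under 0.05 was found for 3 of 19 (15.8%), against 30.7% of all tested probes. DNA methyltransferase 3B, which sets new methylation, had signals of 3985 and 3211 in Cy5 and 6586 and 9013 in Cy3, with log2 ratios of -0.72 and -1.49 (mean -1.11 ± 0.54, SD, n = 2 arrays, adjusted p = 0.0907). It was past the criteria on the mean and on array 2, but not on array 1. DNA methyltransferase (cytosine-5) 1, which copies methylation after replication and is given here with its value in view, had -0.33 and -0.48 (mean -0.41, adjusted p = 0.259), and DNA methyltransferase 2, which methylates transfer RNA, had -0.06 and -0.07. Pcgf2, a Polycomb ring finger protein listed under an older zinc finger name, had a mean of -0.89, and SMC1-like 1, a cohesin subunit, a mean of -0.54. The highest were the YY1 transcription factor, with log2 ratios of 0.63 and 0.65 (mean 0.64, adjusted p = 0.122), ring finger protein 2, the ubiquitin ligase of Polycomb repressive complex 1, with 0.37 and 0.63, and retinoblastoma binding protein 6, with 0.24 and 0.41.

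**Figure D4:**
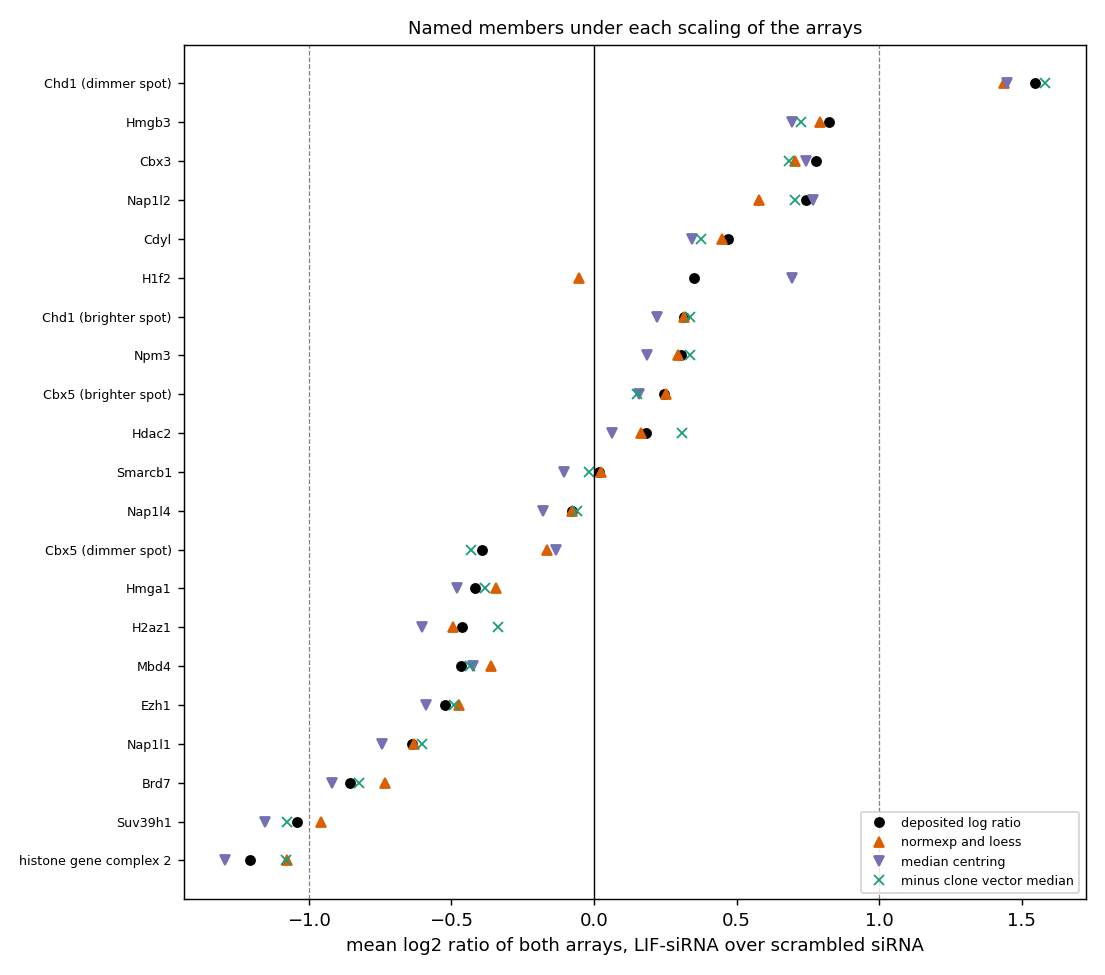
Mean log2 ratio of both arrays (x axis) for the 21 named member spots (y axis) from the deposited log ratio, after normexp with loess, after median centring, and after the median of the clone vector class was subtracted; dashed lines mark a 2-fold ratio in each direction. The symbols of a spot lie on the same side of 0 except for H1f2, which is not well above background and has no vector-corrected value, and Smarcb1, whose mean is 0.02.

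The files give the vector of each cDNA clone, and the median ratio differed between vectors, from -0.18 to 0.09 on the log2 scale over the 7 vectors that held members. Of the members, 7 came from clones in pBlueScribe Sal/Mlu (Hmgb3, Cbx3, the brighter Cbx5 spot, Ezh2, Eed, Cdyl and the histone acetyltransferase), and 7 of 7 were higher on both arrays. Over all 746 tested probes in this vector, 44.2% were higher on both arrays and the median log2 ratio was 0.09. Of the 9 members in pSPORT, among them the 3 tested histone spots, 4 were lower and 3 higher on both arrays, and over the 974 probes of this vector 47.7% were lower on both, with a median of -0.13. The single pSPORT1 clone, Kmt2a (-0.85), came from the vector with the lowest median, -0.18, with 48.8% of 211 probes lower on both arrays. Of the 8 members in pBluescriptSK-, 5 were lower and 2 higher on both arrays, with a median of -0.44. Over the 1410 probes of this vector 38.1% were lower and 33.0% higher on both, with a median of -0.04. These members ranged from Brd7 (-0.86) to the dimmer Chd1 spot (1.55). The 11 members in pT3T7-Pac had a median of 0.00, beside 0.04 over 4053 probes, and the other 2 vectors held 3 members (pCMV-SPORT) and 2 members (pINCY). The pattern was noticed after the values had been seen, and the part of the vector in these ratios was not tested. With the median of the vector class subtracted on each array, the mean was 0.73 for Hmgb3, 0.68 for Cbx3, -1.08 for histone gene complex 2 and -0.34 for H2az1.

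Whole morulae hold cells on the way to the inner cell mass and to the trophectoderm, and in such samples fewer cells of a type and less RNA per cell cannot be told apart. Pou5f1 (named POU domain, class 5, transcription factor 1), which defines pluripotent cells, was bright in both channels, with 7313 and 8315 in Cy5 and 8862 and 8038 in Cy3. Of the 4 pluripotency spots 1 was higher, 2 lower and 1 split on the 2 arrays. Sox2 (named SRY-box containing gene 2) was lower, with 713 and 2034 in Cy5 and 5701 and 6572 in Cy3, log2 ratios of -3.00 and -1.69 (mean -2.35, adjusted p = 0.0607), and it was past the criteria. Undifferentiated embryonic cell transcription factor 1 was also lower (mean -0.95, adjusted p = 0.0868), and zinc finger protein Zfp42 was higher (mean 0.35, adjusted p = 0.342). The list summed to 39370 and 39118 in Cy5 and 36223 and 40446 in Cy3, of which Zfp42 gave 31231 and 28609 in Cy5 and 21414 and 25562 in Cy3, so the sum does not show the ratio of Sox2.

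Of the 5 trophectoderm spots 1 was higher, 2 lower and 2 split, with sums of 13203 and 13663 in Cy5 and 18387 and 25928 in Cy3. Keratin complex 2, basic, gene 8 had a mean log2 ratio of -1.95 (adjusted p = 0.0580) and was past the criteria. GATA-binding protein 3 had a mean of -0.54, while E74-like factor 5 had log2 ratios of 0.32 and 1.47 (mean 0.90, adjusted p = 0.156). Keratin complex 1, acidic, gene 19 (0.22 and -0.14) and eomesodermin (0.28 and -0.0042) were split. Of the 8 spots of cumulus, oviduct or blood genes 3 were higher, 3 lower and 2 split, with sums of 2877 and 3050 in Cy5 and 4925 and 4305 in Cy3. Hemoglobin X was the brightest of them, at 1610 and 1421 in Cy5 and 3979 and 3439 in Cy3 (mean -1.29, adjusted p = 0.0607), and was also past the criteria. Without hemoglobin X the other 7 spots summed to 1267 and 1629 in Cy5 and 947 and 865 in Cy3, with Cy5 above Cy3. The cumulus gene pentaxin related gene (0.67 and 1.68, adjusted p = 0.0972) and oviductal glycoprotein 1 (0.74 and 1.11, adjusted p = 0.0892) were higher on both arrays. Hemoglobin beta had 1 spot higher (mean 0.76) and 1 lower (mean -0.19), and hemoglobin Z was lower (mean -0.61). Tumor necrosis factor induced protein 6 (-0.63 and 0.23) and hemoglobin Y (-0.05 and 0.25) were split. No spot of these lists was listed at 0. The single maternal spot, bone morphogenetic protein 15, was dim, with at most 126 in the 4 channels. The part of these cell types in the ratios of the chromatin genes was not tested.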

How the data were processed

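Gene expression was compared between mouse morulae given LIF-siRNA and morulae given scrambled siRNA on 2 two-color arrays of 9651 spots each. The authors deposited Agilent Feature Extraction output. The deposited intensity columns hold mean, local background, background-subtracted and dye-normalized processed signals of each spot. The deposited log10 ratio is Cy5 over Cy3 after rank-consistent lowess. The deposited log2 values of the series table are a mean of the brightness of Cy3 and Cy5, not a ratio (r of 0.998 with that average on both arrays), and was not used further. One label field speaks of untreated stem cells and of 4 replicates, against the titles, so the arrays were grouped by titles, RNA sources and dyes.

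Ratios were turned to the log2 scale. Spots of controls were dropped, as were 23 gene spots with an outlier mark. A probe was tested if, on each array, at least 1 channel was well above background, with limma 3.58.1 in R 4.3.3 (lmFit and eBayes, intercept only, two-sided), with Benjamini-Hochberg adjustment at 0.05, after a check on simulated data. Other steps used Python 3.11.15, pandas 2.3.3 and numpy 2.4.6. The median signal over local background was 6.42 (Cy5) and 5.72 (Cy3) on array 1 and 6.60 and 4.83 on array 2, and no gene spot was saturated. The number of arrays limits the precision.

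Members were grouped by the start of the gene name, and Hira, whose name starts with histone, was placed with the chaperones. Symbols were assigned from the full names in the files and checked against RefSeq. The naming rule uses no measured value, but this set of genes, its lists and its tests were chosen with earlier results of these data known. Each member is accounted for. Signals and ratios are given in full for members past the criteria or past the ratio alone, the highest and lowest of each role group with the same sign on both arrays, names with several spots, the 5 members with the largest difference between the arrays (except H1f2, which was not well above background) and the 5 with the smallest p, and values for the 3 highest and 3 lowest of the other chromatin genes. Members compared with a relative, and DNA methyltransferase (cytosine-5) 1, were added with their values in view. Alternatives were normexp (offset 50) with loess, median centring, outliers kept, other filters on dim probes, spots of a name averaged, an intensity trend, the methods' t-test, other rules for the criteria, each array left out and, chosen after seeing the data, subtraction of the median of the clone vector class.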

Additional observations from a re-analysis of the deposited data

How the results depend on the processing

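The count of members past the criteria was 1 higher under each alternative tried, and 2 lower except for 1 with the ratio required on both arrays, 1 with normexp and loess, and 1 to 3 with an array left out (on array 1 alone Nap1l1 was added, and on array 2 alone Suv39h1 was lost). The count of members called by limma was 0 when spots of a name were averaged, when dim probes or outliers were kept, and by the methods' t-test. The count was 1 with normexp and loess, 1 among probes well above background in both channels and 1 with the median of the clone vector class subtracted, in each case the dimmer Chd1 spot (adjusted p of 0.0490, 0.0463 and 0.0477). It was 4 with median centring (Chd1, Brd7, Suv39h1 and histone gene complex 2), 5 among probes with a signal above 1000 (the same and Hmgb3) and 5 with an intensity trend (Chd1, Hmgb3, Suv39h1, H2az1 and histone gene complex 2). Over all probes these settings called 158, 234, 170, 1324, 660 and 1133 in that order, out of at most 8079 tested probes, beside at most 41 tested members. The absence of calls in the deposited log ratios therefore depends on the filter, the scaling and the model of the variance. Among probes with a signal above 1000, 5 of 28 members were called (17.9%) against 18.7% of all. The median log2 ratio of the members was 0.018, and it was -0.13 without array 1 and 0.052 without array 2. Of the 41 tested members, 0 changed sign under normexp with loess, 4 under median centring (Smarcal1, -0.04; the histone acetyltransferase, -0.02; Smarcb1, -0.10; Hira, -0.01) and 2 with the vector median subtracted (Smarcb1, -0.02, and Mllt10, -0.03), and none of these was past the criteria. The untested H1f2 changed sign under normexp. Of the 21 named spots, 7 moved by more than the SD between the arrays under normexp with loess and 7 under median centring, and 5 of 20 with the vector median subtracted. The ratio within an array is already the paired difference between the groups, so the fit used this pairing and no further pairing was fitted. With 1 array limma has no residual degrees of freedom.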
